A study of Mus musculus with 4 samples.

Results

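A group of 10 transcription and chromatin factors with a place in stem cell biology were followed in cultured mouse periosteal cells. They were 6 Krüppel-like factors (*Klf2*, *Klf4*, *Klf5*, *Klf6*, *Klf9* and *Klf10*), *Myc*, the pluripotency factors *Pou5f1* (OCT4) and *Sox2*, and the Polycomb gene *Bmi1*. The genes were taken by symbol, and all 10 were among the 45802 symbols listed. Of them 9 had a signal in each of the 4 libraries, the exception being *Sox2*, as did 14415 symbols of the table.

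Both populations came from hindlimb periosteum of male *Pdgfra*-CreER;mT/mG mice aged 9 to 10 weeks. Every mouse was given tamoxifen (150 mg/kg daily, 5 days), with the hindlimbs collected 14 days after the last dose. CreER is expressed under control of the *Pdgfra* promoter, and tamoxifen makes it replace the red membrane reporter with a green one for good, which records past promoter activity and not the present level of the receptor. Cells were grown for 1 passage with 10 ng/mL bFGF and then sorted, in both arms, as negative for CD31, CD45 and Ter119. GFP marked the PDGFRα reporter+ cells (2 libraries), and tdTomato marked the PDGFRα reporter- cells (2 libraries). By the labels, 3 to 6 mice gave each population, and the methods of the study give a larger number. The libraries carry the numbers 2 and 3 in the table heading and 1 and 2 in the sample labels, so that each is named here by its population and heading number. What the heading number stands for is not given in the sources used here.

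Krüppel-like factors bind CACCC and GC-rich elements through zinc fingers at their C-terminus, and many respond within hours to serum, stress or mechanical force. KLF4, OCT4, SOX2 and MYC are the factors that together reprogram fibroblasts to pluripotency. In pluripotent cells, OCT4 and SOX2 form the core of a network that somatic cells do not use, whereas KLF4, KLF2 and KLF5 can support self-renewal there and have separate roles in epithelium, endothelium and mesenchyme. BMI1 is a subunit of Polycomb repressive complex 1 and is known for restraining the *Cdkn2a* locus and thereby senescence.

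Promoter sequence is shown for 3 genes, because, among the 9 genes listed in every library, *Klf4* and *Klf9* had the largest differences between the populations, in opposite directions, and *Klf6* had the largest difference between the library numbers. Each runs 5′ to 3′ on the strand of the gene, from 250 to 31 bases before the start site in RefSeq on GRCm38.p6, the build that the submitters' processing notes name. Capitals mark GC boxes (GGGCGG) and CACCC elements on either strand, with overlapping matches counted separately. The windows are chr4:55532506-55532725 (minus strand) for *Klf4*, chr19:23140976-23141195 (plus strand) for *Klf9* and chr13:5861239-5861458 (plus strand) for *Klf6*.
Klf4: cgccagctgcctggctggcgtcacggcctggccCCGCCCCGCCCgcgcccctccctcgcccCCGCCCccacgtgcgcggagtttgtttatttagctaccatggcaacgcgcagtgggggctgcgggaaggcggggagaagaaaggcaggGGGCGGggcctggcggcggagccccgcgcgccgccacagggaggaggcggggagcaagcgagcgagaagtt
Klf9: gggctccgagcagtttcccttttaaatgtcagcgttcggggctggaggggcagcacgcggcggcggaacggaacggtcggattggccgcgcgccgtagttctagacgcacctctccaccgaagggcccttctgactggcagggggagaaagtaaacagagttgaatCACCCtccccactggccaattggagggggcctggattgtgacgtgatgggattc
Klf6: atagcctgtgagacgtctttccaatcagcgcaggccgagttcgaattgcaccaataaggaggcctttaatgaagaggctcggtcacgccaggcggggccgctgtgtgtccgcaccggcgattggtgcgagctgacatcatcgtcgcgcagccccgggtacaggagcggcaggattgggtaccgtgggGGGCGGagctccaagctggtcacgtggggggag

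The *Klf4* window held 4 GC boxes, the *Klf6* window 1 and the *Klf9* window 0, and a CACCC element was in the *Klf9* window alone among these 3. RefSeq windows were found for 7 of the 10 genes (*Klf2*, *Klf4*, *Klf6*, *Klf9*, *Bmi1*, *Sox2* and *Pou5f1*, the last with a pair of windows). A GC box was present in 6 of these 8 windows, compared with 28.5% of 32851 promoter windows of the same length. A CACCC element was present in 3 of the 8, compared with 47.8%. GC content ran from 61.36% (*Klf9*) to 75% (*Sox2*), but was 45.91% in 1 *Pou5f1* window. The median over all promoter windows was 51.82%. Whether GC content accounts for the share with a GC box was not tested. These letters are a description and not evidence of a bound site.

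Positions are those of GENCODE M21 on GRCm38. *Klf2* lies at chr8:72319033-72321656, *Klf4* at chr4:55527143-55532466, *Klf5* at chr14:99298691-99315036, *Klf6* at chr13:5861482-5870394, *Klf9* at chr19:23141226-23168134 and *Klf10* at chr15:38291463-38300706. *Myc* lies at chr15:61985391-61990374, *Pou5f1* at chr17:35506018-35510772, *Sox2* at chr3:34650405-34652461 and *Bmi1* at chr2:18677018-18686629.

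The deposited values are log2 signals after quantile normalization. They behaved as values divided by gene length. Among 850 genes listed in 1 library only, which are the weakest signals in the table, the log2 value fell with log2 exonic length at a slope of −0.70, whereas the slope was 0.02 over 13846 genes listed in all libraries. Levels of different genes are therefore set side by side per length, with the reservation that the linear unit is not stated. As the depth is unknown, no counting error was computed. The median of linear value times exonic length over those 850 genes served as the smallest step of the scale, and 45.5% of them lay within 1.25 times of it.

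All 8 stromal markers examined were listed in every library. *Pdgfra* had log2 signals from 7.44 to 7.87 and *Col3a1* from 9.37 to 10.78, whereas *Postn*, a marker of periosteum, was at −1.13 and 2.04 in PDGFRα reporter+ libraries 2 and 3 and at 0.14 and 3.04 in PDGFRα reporter- libraries 2 and 3. *Lyz2*, a macrophage marker, reached 7.65 and 7.88 in the PDGFRα reporter+ libraries, and *Hbb-bs* and *Alas2*, markers of red cells, had no value in any library. Markers of other cells moved with the populations. All 8 macrophage markers examined (*Ptprc* and *Lyz2* among them) were listed in every library and had positive differences, with a summed linear signal of 227 and 268 in PDGFRα reporter+ libraries 2 and 3 and of 90.7 and 172 in the corresponding PDGFRα reporter- libraries. All 5 endothelial markers that could be tested had negative differences, and the summed signal over the 6 markers of the list was 0.238 and 1.17 in the PDGFRα reporter+ libraries and 1.12 and 3.81 in the others. Their part in the values of the 10 genes was not tested, and in bulk samples fewer cells of a type and less RNA per cell cannot be told apart.

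Over the 4 libraries, the levels of the 10 genes per length spanned a wide range (plotted by library and gene). *Klf6* was highest, with a mean log2 signal of 4.16 ± 0.60 (SD, n = 4). *Myc* (3.31 ± 0.13), *Klf9* (3.28 ± 0.42) and *Klf4* (3.24 ± 0.41) followed with overlapping ranges and were not separated. *Bmi1* had 2.07 ± 0.29, and the ranges of *Klf2* (0.69 ± 0.39) and *Klf10* (0.61 ± 0.15) overlapped. *Klf5* (−1.17 ± 0.56), *Pou5f1* (−2.72 ± 0.36) and *Sox2* (a mean of −4.12 over 3 libraries) formed the low end in that order, each without overlap with the next. These SDs cover libraries of both populations.

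**Figure D1:**
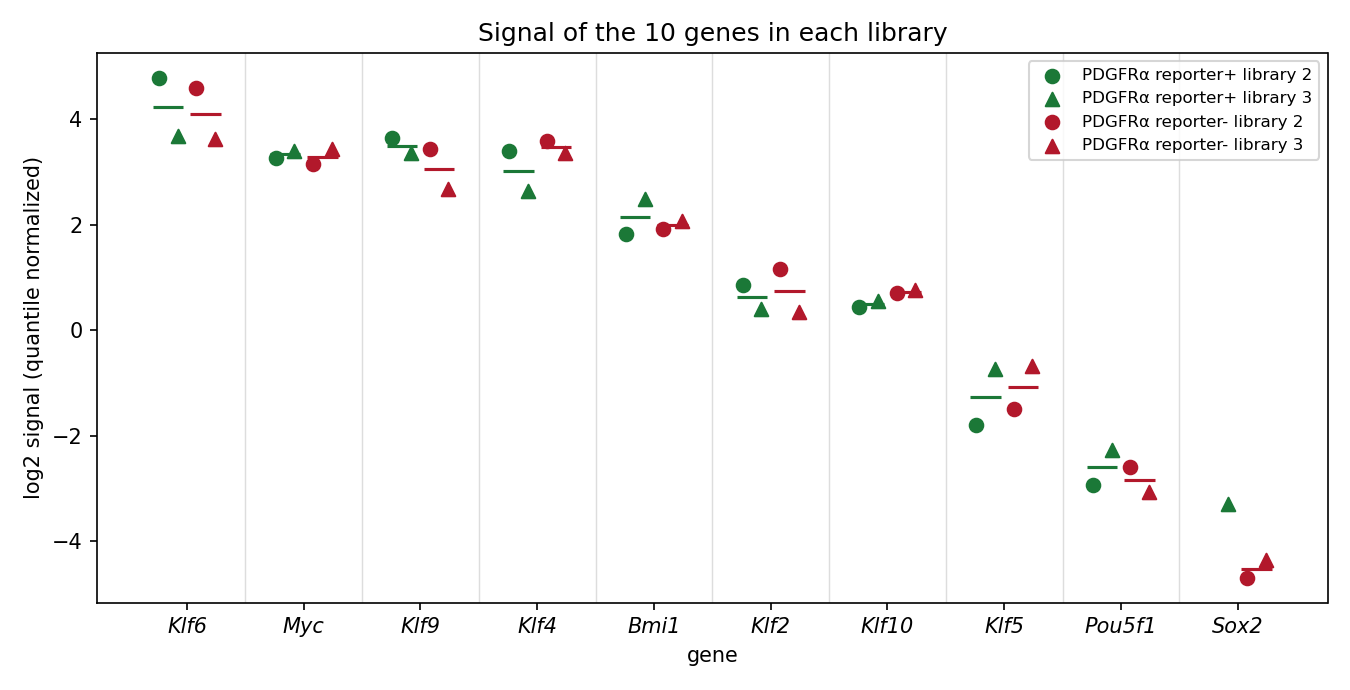
Log2 signal (y axis, quantile normalized) of the 10 genes (x axis, ordered by mean) in each library, with green for PDGFRα reporter+ and red for PDGFRα reporter- cells, circles for libraries numbered 2 and triangles for libraries numbered 3. Short lines are population means of 2 libraries. *Klf6* lies between 3.62 and 4.78 and *Sox2* at or below −3.29, and the point of *Sox2* in PDGFRα reporter+ library 2 is missing because that value is blank.

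The first comparison asked whether the reporter separates cells that differ in these factors. For no gene did the difference exceed the spread of the libraries in the fit without a block. On simulated data that fit called no changed gene, so an absence of calls cannot answer the question. None of the 9 genes reached an adjusted p under 0.05 with limma, as was the case for 0% of the 14415 genes tested, and none had an unadjusted p under 0.05, compared with 0.909% of all genes. The adjusted p was 1 for each of the 9 genes. *Klf10* alone had populations that did not overlap, which is 1 of 9 against a background of 15.7%. The differences had the same direction within both heading numbers for 5 of the 9 genes (*Klf4*, *Klf5*, *Klf6*, *Klf9* and *Klf10*), and for 46.8% of all genes. The median absolute difference was 0.18 on the log2 scale for the 9 genes and 0.12 for all genes. Unless a block is named, SEs and intervals for the populations are from the fit without one. Their spread takes in the difference between the heading numbers.

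*Klf4*, a factor of epithelial barrier formation and vascular wall cells as well as of reprogramming, had the largest negative difference of the 9 genes. Its log2 signals were 3.40 and 2.64 in PDGFRα reporter+ libraries 2 and 3, and 3.58 and 3.36 in PDGFRα reporter- libraries 2 and 3. The value of PDGFRα reporter+ library 3 stood below the other 3 libraries, and the populations overlapped. The mean was 1.36-fold lower in PDGFRα reporter+ cells, a log2 difference of −0.45 (SE 0.30, 95% interval −1.24 to 0.35). It was −0.18 between the libraries numbered 2 and −0.71 between those numbered 3.

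*Klf9*, which is known as a target of the glucocorticoid and thyroid hormone receptors, had the largest positive difference of the 9 genes. Its log2 signals were 3.64 and 3.35 in PDGFRα reporter+ libraries 2 and 3, and 3.44 and 2.68 in PDGFRα reporter- libraries 2 and 3. The low value belonged to PDGFRα reporter- library 3, so that the uneven pair was again the one numbered 3. The log2 difference was 0.44 (SE 0.30, 95% interval −0.37 to 1.25), with 0.20 between libraries numbered 2 and 0.67 between libraries numbered 3. *Klf4* and *Klf9* thus had differences of like size and opposite sign, neither beyond the spread in the fit without a block.

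*Klf10*, also called TIEG1 for its early induction by TGF-β, is expressed in osteoblasts. Its log2 signals were 0.43 and 0.55 in PDGFRα reporter+ libraries 2 and 3, and 0.69 and 0.76 in PDGFRα reporter- libraries 2 and 3. Both PDGFRα reporter+ values lay below both PDGFRα reporter- values. The log2 difference was small at −0.23 (SE 0.25, 95% interval −0.89 to 0.43) and nearly the same within the numbers, at −0.26 and −0.21.

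*Klf6*, an early response gene of injured tissue, had log2 signals of 4.78 and 3.67 in PDGFRα reporter+ libraries 2 and 3, and of 4.58 and 3.62 in PDGFRα reporter- libraries 2 and 3. Libraries with the same number were close and those with different numbers far apart. The log2 difference between populations was 0.13 (SE 0.51, 95% interval −1.22 to 1.47). With the library number as a block, the SE was 0.12 and the 95% interval −0.14 to 0.39.

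*Klf5*, best known from proliferating epithelium and smooth muscle, followed the numbers in the other direction, with −1.79 and −0.74 in PDGFRα reporter+ libraries 2 and 3 and −1.49 and −0.67 in PDGFRα reporter- libraries 2 and 3. Its difference between populations was −0.18 (SE 0.57, 95% interval −1.71 to 1.35). With the library number as a block, the interval was −0.89 to 0.53. *Klf2*, the flow-responsive factor of endothelium and of quiescent T cells, had 0.86 and 0.39 in PDGFRα reporter+ libraries 2 and 3 and 1.15 and 0.34 in PDGFRα reporter- libraries 2 and 3. Its difference was −0.13 (SE 0.39, 95% interval −1.17 to 0.92) and changed sign between the numbers, from −0.30 to 0.05. For *Klf2* the interval with the block was −0.60 to 0.35.

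*Myc*, the driver of ribosome production and growth, was the steadiest of the well-expressed genes. Its log2 signals were 3.27 and 3.39 in PDGFRα reporter+ libraries 2 and 3, and 3.15 and 3.42 in PDGFRα reporter- libraries 2 and 3. All 4 values lay within a narrow band in which the populations overlapped. The difference of 0.04 (SE 0.17) had the narrowest interval among the 9 genes, from −0.41 to 0.50 on the log2 scale.

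*Bmi1* had log2 signals of 1.82 and 2.48 in PDGFRα reporter+ libraries 2 and 3, and 1.92 and 2.07 in PDGFRα reporter- libraries 2 and 3. The highest value was that of PDGFRα reporter+ library 3, and the others lay together. The difference of 0.16 (SE 0.28, 95% interval −0.60 to 0.91) was made up of −0.10 in number 2 and 0.41 in number 3. *Bmi1* lies 786 bases downstream of *Commd3* on the same strand in GENCODE M21, and *Commd3* had far higher log2 signals, from 4.94 to 5.23, with a difference of 0.03.

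*Pou5f1* and *Sox2* were listed at the bottom of the scale. The log2 signals of *Pou5f1* were −2.94 and −2.27 in PDGFRα reporter+ libraries 2 and 3, and −2.60 and −3.08 in PDGFRα reporter- libraries 2 and 3. In units of the smallest step these were 11.4, 18.1, 14.4 and 10.3. The populations overlapped, and the difference of 0.24 (SE 0.54, 95% interval −1.20 to 1.68) ran from −0.34 in number 2 to 0.81 in number 3. *Tcf19* lies 1961 bases from *Pou5f1* and had a difference of 0.25. The antisense gene *Gm19553* overlaps *Pou5f1* in GENCODE M21, and whether the counting used strand is not given in the sources used here.

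*Sox2* showed no signal in PDGFRα reporter+ library 2, a log2 signal of −3.29 in PDGFRα reporter+ library 3, and −4.69 and −4.37 in PDGFRα reporter- libraries 2 and 3. One PDGFRα reporter+ library was thus the lowest of the 4 and the other the highest. The listed values corresponded to 8.16, 3.09 and 3.87 of the smallest steps of the scale. The direction for *Sox2* rested on how the blank was read. Within number 3 the PDGFRα reporter+ value was higher by 1.07 on the log2 scale. With the blank set to the lowest value of its library (−10.07), the difference over all libraries was −2.15 (SE 2.50, limma adjusted p = 1). *Sox2* lies inside the noncoding gene *Sox2ot* on the same strand, which had no value in any library.

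**Figure D2:**
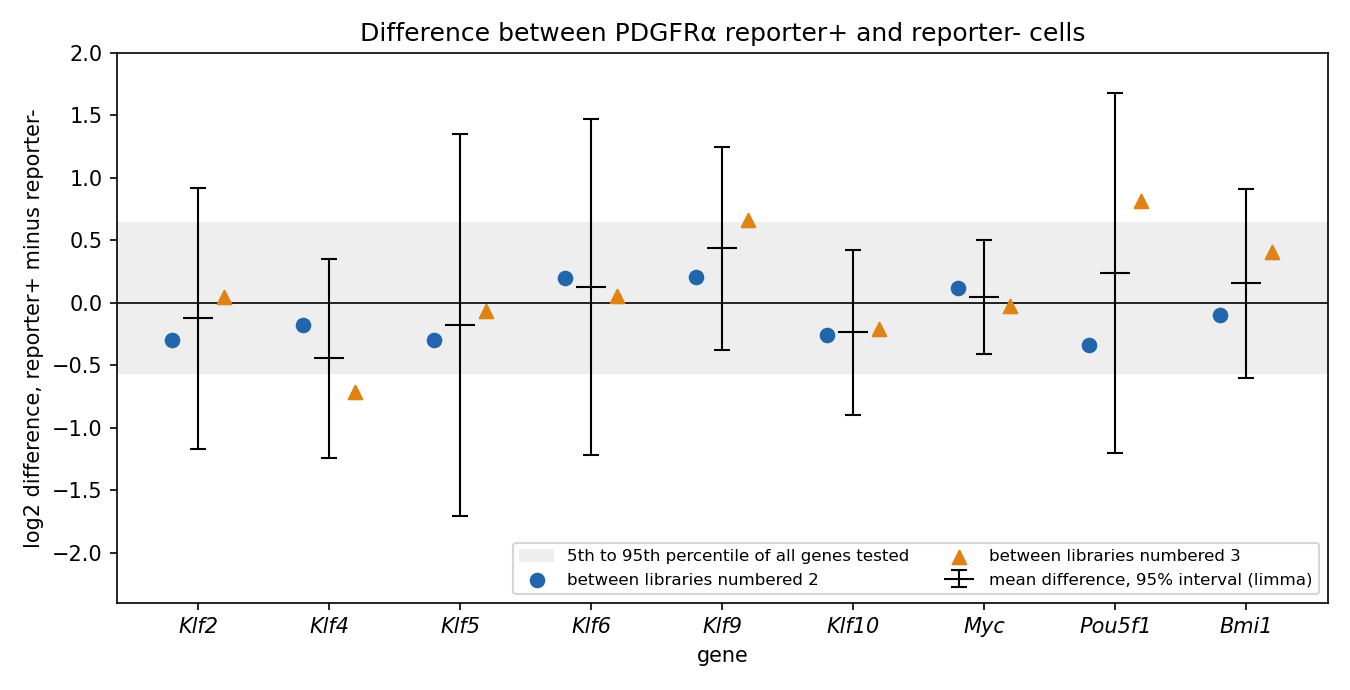
Log2 difference between PDGFRα reporter+ and PDGFRα reporter- cells (y axis) for the 9 genes listed in every library (x axis). Blue circles are between the libraries numbered 2 and orange triangles between those numbered 3. Black marks are the mean and its 95% interval from limma without a block (n = 2 libraries per population). The grey band is the 5th to 95th percentile of the means of all 14415 genes, −0.56 to 0.64, and every interval spans 0.

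The second comparison set the libraries numbered 3 against those numbered 2, with the population as a term in the model. These values differed more than those of the populations. The absolute log2 difference between numbers exceeded that between populations for 7 of the 9 genes, and for 75.7% of all genes. The numbers did not overlap for 7 of the 9 genes, against 65.2% of all genes, and the difference had the same sign in both populations for 8 of the 9, *Pou5f1* being the exception, and for 73.8% of all genes. The adjusted p with limma was under 0.05 for 2 of the 9 genes, *Klf6* and *Klf9*, which is close to the 21.3% called among all genes. A difference between the numbers was therefore not particular to these factors. With variances moderated without a trend, 0 genes of the table were called, beside 3909 with an unadjusted p under 0.05.

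*Klf6* was 2.04-fold lower in the libraries numbered 3, a log2 difference of −1.03 (SE 0.12, limma adjusted p = 0.000531), with −1.10 among PDGFRα reporter+ and −0.96 among PDGFRα reporter- libraries. Its adjusted p with limma ranged up to 0.0770 among the other settings, the value without a trend. *Klf9* was lower by 1.44-fold (log2 difference −0.52, SE 0.15, limma adjusted p = 0.0333), with −0.29 and −0.76 in the populations, and its adjusted p ranged from 0.0238 to 0.218. *Klf4* and *Klf2* had negative values in both populations without passing the test, *Klf4* with −0.76 and −0.22 (limma adjusted p = 0.0519) and *Klf2* with −0.47 and −0.81 (limma adjusted p = 0.0627). *Klf5* had positive values of 1.06 and 0.82 (limma adjusted p = 0.0642). *Klf10*, *Myc* and *Bmi1* had differences between the numbers of 0.09, 0.20 and 0.41, and *Pou5f1* of 0.09, with limma adjusted p-values from 0.124 to 0.910.

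**Figure D3:**
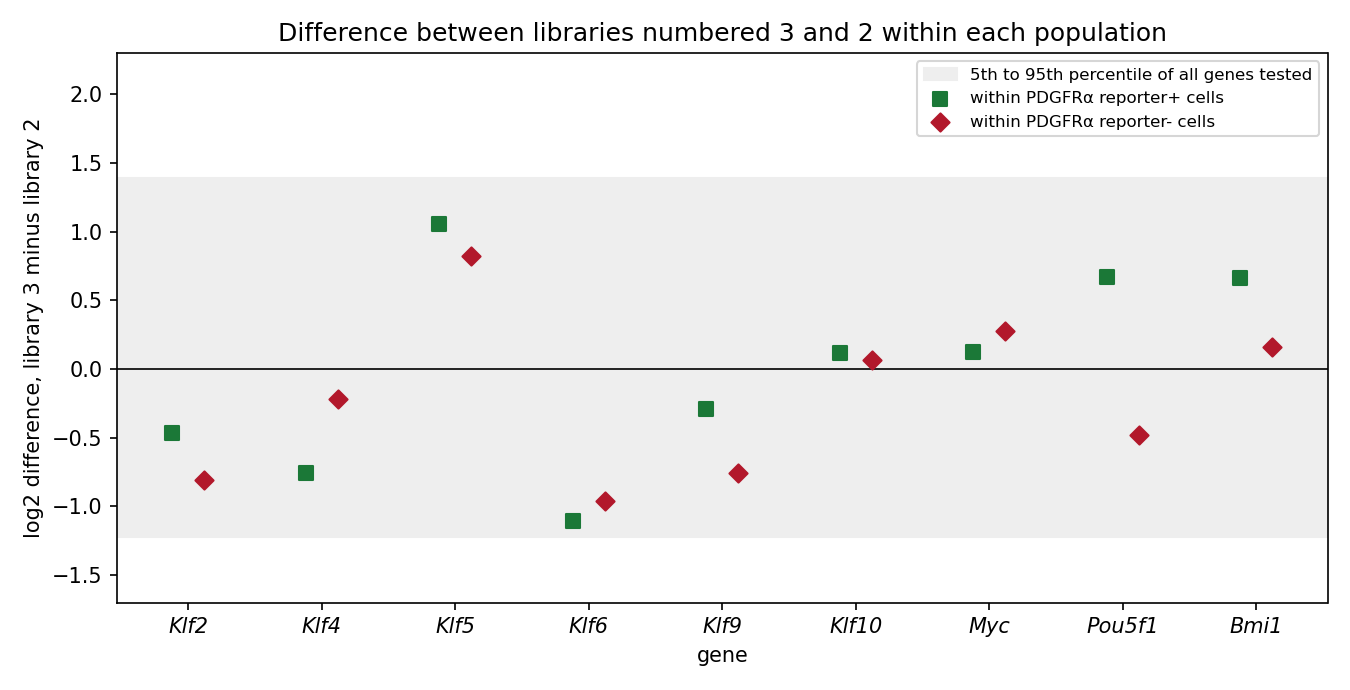
Log2 difference between the libraries numbered 3 and 2 (y axis) for PDGFRα reporter+ (green squares) and PDGFRα reporter- (red diamonds) libraries for the 9 genes (x axis), 1 library against 1 at each point. The grey band is the 5th to 95th percentile over all 14415 genes of the mean of both populations, −1.22 to 1.39, and not of single pairs of libraries such as the points show. *Klf6* lies near −1 and *Klf5* near 1 in both populations, whereas the points of *Pou5f1* lie on opposite sides of 0.

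The immediate early genes, which serum and cell handling switch on within minutes, were examined beside the Krüppel-like factors because several of the latter are induced in the same way. Of 16 such genes, 14 were lower in the libraries numbered 3, 11 of them with an adjusted p under 0.05 (limma), and 0 were called higher. The median difference was −1.09, compared with 0.05 over all genes tested, of which 21.3% were called. *Dusp1* fell by 2.47 on the log2 scale (SE 0.15), *Egr1* by 2.00 (SE 0.13), *Fos* by 1.72 (SE 0.18) and *Ier3* by 1.64 (SE 0.12), with limma adjusted p-values of 2.55e-05, 2.80e-05, 0.000337 and 5.22e-05. *Egr2* and *Egr3* had positive values of 1.21 and 1.01 without passing the test. *Klf6*, *Klf2*, *Klf4* and *Klf9* had the direction of most of these genes, whereas *Klf5* (0.94) and *Klf10* (0.09) had the opposite one. Whether the 2 sets share a cause was not tested, and the preparation of the libraries cannot be told apart from their number. Between the populations, 3 of the 16 had positive and 13 negative differences with a median of −0.19, and 0 were called. Leaving out PDGFRα reporter+ library 3 turned this median to 0.46, and leaving out PDGFRα reporter- library 2 turned it to 0.36. The extremes were *Egr2* (−1.10), *Egr3* (−0.92), *Ier3* (0.14) and *Fosb* (0.12).

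Of the other Krüppel-like factors, *Klf14* and *Klf17* had no value in any library, and 9 of 11 were listed in all libraries. Between the populations 6 had positive and 3 negative differences, with a median of 0.06 against −0.0035 over all genes, and 0 had an adjusted p under 0.05 (limma), beside 1 with an unadjusted p under 0.05. Over all 12 lists of related genes, an unadjusted p under 0.05 for the populations was found for *Klf1*, *Mycn*, *Ccnd2* and *Cdkn1a* and for no other gene. The share with such a p was 0.909% over all 14415 genes tested. *Klf1*, the erythroid factor, was listed with log2 signals of −5.13 and −5.02 in PDGFRα reporter+ libraries 2 and 3 and −2.55 and −3.39 in PDGFRα reporter- libraries 2 and 3. Its populations did not overlap, as was the case for 15.7% of all genes, at a difference of −2.11 (SE 0.62, limma adjusted p = 1). All values of *Klf1* lay at the low end of the scale. *Klf3* had a difference of −0.25, *Klf8* of 0.33 and *Klf11* of 0.18. Between the numbers, *Klf15*, known from glucocorticoid signaling and metabolism, was higher in number 3 (0.93), and *Klf8* (−1.63) and *Klf13* (−0.68) were lower. Of the related SP factors, 6 of 9 were tested, with a median difference of 0.01 between the populations and 0 calls in either comparison. Over all genes, 21.3% were called between the numbers. *Sp3* had 0.17, *Sp4* 0.11, *Sp2* −0.33 and *Sp6* −0.25, and *Sp8* and *Sp9* were without signal.

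Many genes of the pluripotency network had no signal or were near the floor of the scale. Of 24 genes examined, 12 had no value in any library (among them *Zfp42*, *Lin28a*, *Sall4* and *Utf1*), 5 had a value in some libraries, and 7 were tested. *Nanog*, the third core factor beside *Pou5f1* and *Sox2*, was blank in PDGFRα reporter- library 2 and at −7.13, −7.00 and −7.07 in the others. Some of the 7 genes tested have further roles in stromal cells, as *Il6st*, *Lifr* and *Stat3* do in LIF and IL-6 signaling. Their median difference between the populations was 0.25, with 4 positive and 3 negative values and 0 calls (limma). With blanks at the lowest value, which brings in the 5 genes listed in some libraries, the median of the larger set was 0.62. The median of the 7 genes turned to −0.14 when PDGFRα reporter+ library 3 was left out and to −0.12 when PDGFRα reporter- library 2 was. *Tfcp2l1* had 0.87 (SE 0.59), *Il6st* 0.38 (SE 0.22), *Tcf3* −0.11 and *Trim28* −0.04. Between the numbers, *Lifr* was higher (1.29) and *Tbx3* lower (−1.45) in number 3.

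Relatives of *Sox2* and *Pou5f1* ranged from absent to well expressed. *Sox4* had log2 signals from 4.00 to 5.06, *Sox9* from 1.29 to 2.27 and *Pou6f1* of up to 1.93. *Sox1*, *Sox3* and *Sox21* had no value, and 10 of 16 other SOX genes were tested, with a median difference of −0.09 between the populations and 0 calls. *Sox15* had 1.51 (SE 1.03), *Sox11* 0.74, *Sox8* −0.47 and *Sox13* −0.40. The difference of *Sox15* was 0.21 in number 2 and 2.81 in number 3, where PDGFRα reporter- library 3 was low at −5.63. Between the numbers 5 of the 10 SOX genes tested were called, against 21.3% of all genes. Of these 5, *Sox4* was higher in number 3 (0.94) and the other 4 lower, among them *Sox9*, the regulator of cartilage, with −0.73, and *Sox6* with −2.35. Of 14 other POU genes, 6 were tested, with a median of −0.30 between the populations and 0 calls. The median of other sets of POU genes lay near 0, both for those that passed the filter on low values and with blanks at the lowest value (0.01), which brings in 4 partly blank genes. That of the 6 genes lay at −0.79 without PDGFRα reporter+ library 3, at −0.86 without PDGFRα reporter- library 2 and at −0.10 without PDGFRα reporter+ library 2. *Pou3f1* had −1.61 (SE 0.69), *Pou3f3* −0.86, and *Pou6f1*, the single positive value, 0.05. Log2 signals ran from −7.08 to −5.38 for *Pou3f1* and from −7.11 to −5.02 for *Pou3f3*, at the low end of the scale.

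*Myc* forms a dimer with MAX and competes with MXD and MNT proteins for it. All 12 partner and paralog genes were tested, 4 with positive and 8 with negative differences between the populations (median −0.01), and 0 were called (limma). *Mycn* had the most negative value at −2.63 (SE 0.93). Its log2 signals were −6.84 and −6.73 in PDGFRα reporter+ libraries 2 and 3 and −5.16 and −3.15 in PDGFRα reporter- libraries 2 and 3. All lay at the low end of the scale. *Mxd3* had 0.43, *Mlxipl* 0.26 and *Mxd4* −0.21. The 15 known MYC target genes had a median of −0.01 between the populations, with 7 positive and 8 negative values and 0 calls. *Ccnd2*, a D-type cyclin, had −0.58 (SE 0.17), *Tert* −0.19, *Ldha* 0.14 and *Nop58* 0.10. Between the numbers, 8 of the 15 were called higher in number 3 (limma adjusted p under 0.05) and 0 lower, against 21.3% called among all genes. Of the 15, 12 had positive and 3 negative values, with a median of 0.60 against 0.05 over all genes. *Nop56* was higher by 1.11 (SE 0.13), *Nme1* by 0.89 (SE 0.13) and *Hspd1* by 0.76 (SE 0.12), whereas the difference of *Myc* itself was 0.20 (SE 0.13) and did not pass the test.

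*Bmi1* acts with RING1 proteins, CBX, PHC and other PCGF subunits. All 22 Polycomb genes examined were listed in every library, 6 with positive and 16 with negative differences between the populations, all within −0.25 and 0.21, with a median of −0.06 and 0 calls (limma). *Cbx7* had −0.25, *Ring1* −0.18, *Pcgf6* 0.21 and *Eed* 0.12. Between the numbers 5 of the 22 were called, 4 higher and 1 lower in number 3, which is close to the 21.3% called among all genes.

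**Figure D4:**
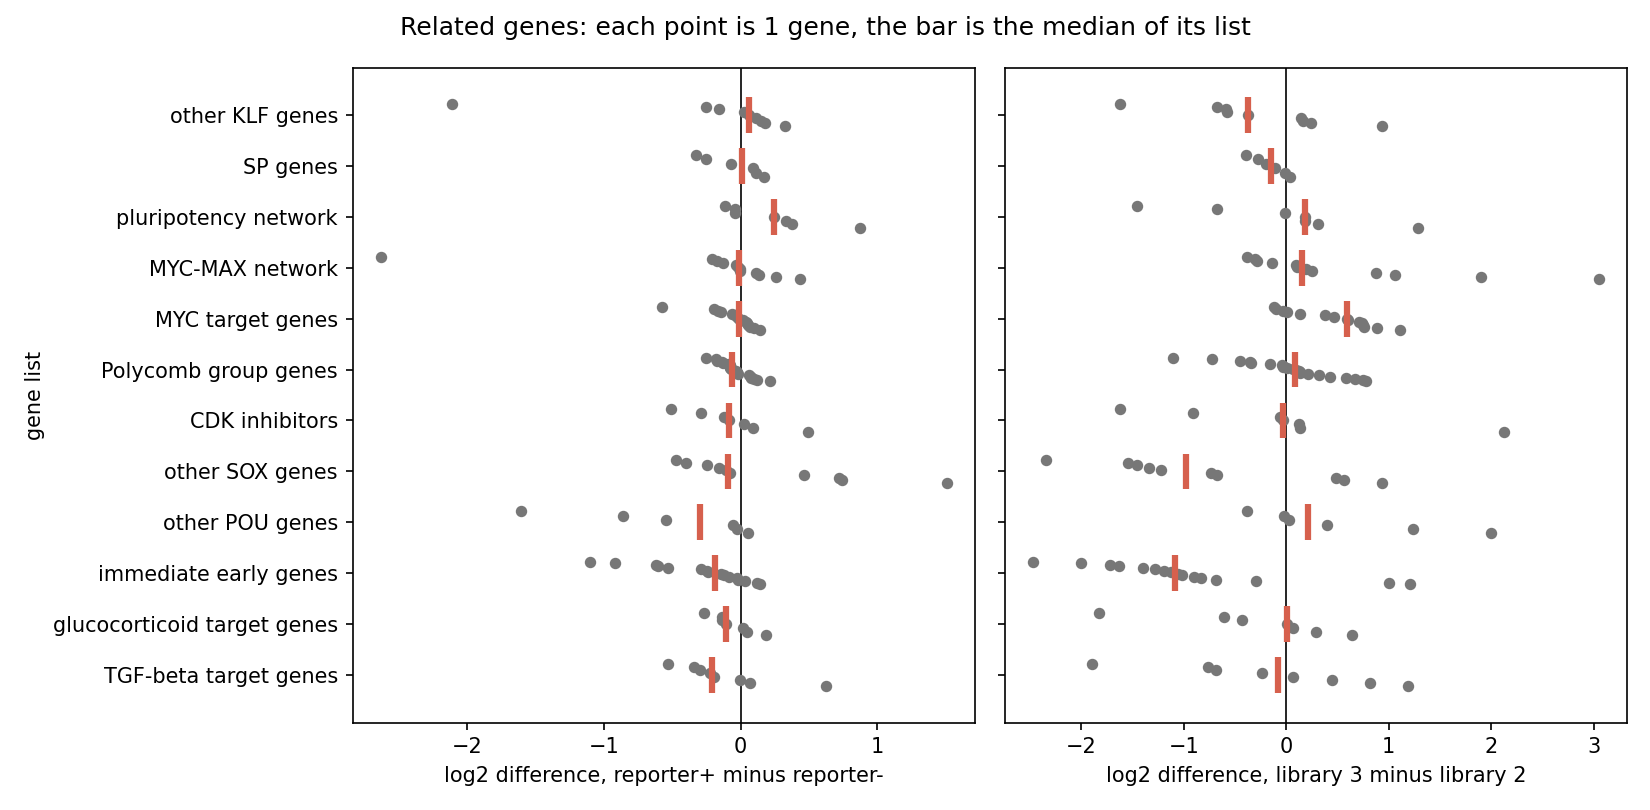
Log2 difference of each gene of 12 lists of related genes (y axis) between PDGFRα reporter+ and PDGFRα reporter- cells (left x axis) and between the libraries numbered 3 and 2 (right x axis), 1 point per gene with a value in all 4 libraries, with the median of each list as a red bar. In the left panel the medians lie between −0.30 and 0.25, and in the right panel the immediate early genes have a median of −1.09 and the MYC target genes of 0.60.

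For *Klf4*, *Klf2* and *Myc*, the genes with the most similar profile over the 4 libraries were sought by the Euclidean distance of log2 signals centered on the mean of each gene, among the 10223 genes with a mean log2 signal of at least 0. The nearest to *Klf4* were *Hspa1a* (distance 0.07), *Exoc4* (0.08) and *Dagla* (0.08), and 38 genes lay within 0.2. The nearest to *Klf2* were *Ahr* (0.02), *Lclat1* (0.07) and *Myo1e* (0.08), with 101 genes within 0.2. The nearest to *Myc* were *Lrrc14* (0.01), *E2f3* (0.01) and *Ino80e* (0.02), and as many as 1929 genes lay within 0.2 of its nearly flat profile. With 4 libraries, such likeness is a description of these samples.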

How the data were processed

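Total RNA of 2 PDGFRα reporter+ and 2 PDGFRα reporter- libraries was sequenced as stranded paired-end Illumina libraries. The authors deposited 1 log2 signal per gene symbol and library, quantile normalized, with a blank for no signal. The submitters' processing notes name bcl2fastq 2.17.1.14, Partek 7.0 and GRCm38.p6. The aligner, the counting, the annotation and the linear unit are not given in the sources used here, and quantile normalization hides shifts shared by all genes. Depth is unknown.

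The 10 genes and the lists were chosen with earlier results of these data known. Differences were tested over the 14415 symbols with a value in all 4 libraries with limma 3.58.1 in R 4.3.3 (eBayes with a trend, two-sided, Benjamini-Hochberg adjustment, threshold 0.05), without a block for the populations and with the population as a term for the heading numbers. p-values measure the spread between these samples, which nothing in the labels ties to separate mice. With 2 against 2, the smallest exact permutation p is 0.333, so none was used. On simulated data the fit without a block recovered the size of the changes but called no changed gene, so that an absence of calls between populations carries little weight. Positions and exonic lengths were from GENCODE M21. Summaries were made with Python 3.11.15, numpy 2.4.6, pandas 2.3.3 and matplotlib 3.10.9.

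Genes named are the 10 genes, those neighbors within 5000 bases that had a value, with *Sox2ot* and *Gm19553*, the 2 most positive and 2 most negative differences of each list between populations, examples of the genes called between the heading numbers (not all are named), some cell markers, and for *Klf4*, *Klf2* and *Myc* the 3 nearest profiles. Other list genes named were chosen after their values were seen. The value of 1 list gene is not reported here. Alternatives were the library number as a block, no trend, a pseudocount of 1, a filter at a mean log2 value of 0, blanks at the lowest value, median centering, and leaving out each library. A block without a trend was added after seeing the data.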

Additional observations from a re-analysis of the deposited data

Results flagged for a closer look

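*Pou5f1*, *Bmi1*, *Klf2* and *Myc* had differences between PDGFRα reporter+ and PDGFRα reporter- cells of opposite sign in the libraries numbered 2 and in those numbered 3, a contrast of 1 library against 1 whose difference was not tested. *Pou5f1* had −0.34 in number 2 and 0.81 in number 3, and *Bmi1* had −0.10 and 0.41. *Klf2* had −0.30 and 0.047, and *Myc* had 0.12 and −0.029.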

How the results depend on the processing

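With 2 libraries per population the intervals were wide, and the values of *Sox2* rest on few steps of the scale. No adjusted p for a difference between populations was under 0.05 for any of the 9 genes in any setting run, and the direction held in all settings that kept the 4 libraries. With 1 library left out, which also unbalances the heading numbers, the log2 difference ranged from −0.53 to 0.28 for *Klf2* (positive without PDGFRα reporter+ library 3 or PDGFRα reporter- library 2), from −0.71 to 0.35 for *Klf5* (positive without PDGFRα reporter+ library 2 or PDGFRα reporter- library 3), from −0.43 to 0.68 for *Klf6* (negative without the same libraries), from −0.092 to 0.18 for *Myc*, from −0.10 to 0.57 for *Pou5f1* and from −0.18 to 0.49 for *Bmi1*. *Klf4* (−0.82 to −0.07), *Klf9* (0.06 to 0.81) and *Klf10* (−0.29 to −0.18) kept their sign. The medians of the lists of related genes between populations also changed sign when some library was left out, except those of the CDK inhibitors and the other POU genes.

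The paired fit, with the library number as a replicate block, called 29 genes in place of 0, none of them among the 9 genes, and 0 with the same block and no trend of the variance. *Klf4* (95% interval −0.79 to −0.098) and *Klf9* (0.11 to 0.77) had intervals that leave out 0 in the block fit with a trend, though not in that without one, with limma adjusted p-values of 0.517 and 0.491, and an unadjusted p under 0.05 was reached by 2 of the 9 genes and by 6.33% of all genes. Deviations from the population means correlated at 0.681 (over genes) for libraries sharing a number, but the labels do not tie the numbers to shared animals.

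Between the heading numbers, leaving out 1 library gives the value within a single population and no test. It ranged from −0.76 to −0.22 for *Klf4*, from −0.76 to −0.29 for *Klf9*, from 0.16 to 0.67 for *Bmi1* and from −0.48 to 0.67 for *Pou5f1*. Without a trend of the variance, *Klf6* (−1.03) and *Klf9* (−0.52) were no longer called and the count of genes fell from 3065 to 0. *Klf9* was not called with a pseudocount of 1 (−0.47), with blanks at the lowest value (−0.52) or without the population term (−0.52). The count was 1825 with the pseudocount and 1256 with blanks at the lowest value. *Klf5* was called with the pseudocount (0.29) and *Klf4* after centering on the median (−0.52). The cause of these changes was not tested.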

Other observations

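Cell cycle inhibitors and the targets of pathways that act on these factors were examined as well. All 7 CDK inhibitors were listed in every library, and 0 were called between the populations (limma), with a median log2 difference of −0.09, which was −0.44 without PDGFRα reporter+ library 2. *Cdkn1a* (p21) had −0.51 (SE 0.15), with −0.47 and −0.56 within the numbers. *Cdkn2a*, the locus that BMI1 restrains, had −0.29 (SE 0.18), with −0.01 in number 2 and −0.56 in number 3. *Cdkn1c* had 0.49 (SE 1.02) and *Cdkn2c* 0.09. Between the numbers, *Cdkn1c* was higher in number 3 by 2.12 (SE 0.16) and *Cdkn2c* fell by 1.62 (SE 0.12), with limma adjusted p-values of 6.12e-05 for both.

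Glucocorticoid target genes, chosen for *Klf9*, had a median difference of −0.10 between the populations over 7 genes. *Sgk1* had 0.19, *Cebpd* 0.05, *Fkbp5* −0.27 and *Errfi1* −0.14. Between the numbers 2 of the 7 were called, against 21.3% of all genes. The median of the list was 0.007, with 4 positive and 3 negative values. The called genes were *Sgk1* (−1.83, SE 0.13) and *Errfi1* (−0.61, SE 0.17), both lower in number 3, whereas *Fkbp5* (0.01) and *Tsc22d3* (0.29) did not pass the test. TGF-β target genes, chosen for *Klf10*, had a median of −0.21 over 8 genes and 0 calls between the populations. *Ctgf* had −0.34, *Tgfbi* 0.63 and *Skil* 0.07. Between the numbers 5 of the 8 were called, 2 higher and 3 lower in number 3, against 21.3% called among all genes. The median of the 8 between the numbers was −0.08.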
